A study of Mus musculus with 30 samples.

Results

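A set of 9 genes of the transforming growth factor beta (TGF-beta) pathway was followed in developing mouse lung and trachea. They were the ligand genes Tgfb1, Tgfb2 and Tgfb3, the receptor genes Tgfbr1, Tgfbr2 and Tgfbr3, Ltbp1, which codes for a protein that stores the latent ligand in the matrix, Smad7, which codes for an inhibitor of the pathway, and Tgfbi, a matrix gene induced by TGF-beta. They were chosen by name for their place in the pathway, with earlier results of these data known. All 9 were found among the 53715 genes of each count table and passed the low-count filter in every fit. RNA-seq counts came from 30 libraries, each made from the lung or trachea of 1 embryo: E13.5 lung (right and left lobes, 5 controls and 5 mutants), E18.5 lung (right lobes, 4 controls and 6 mutants) and E18.5 trachea (4 controls and 6 mutants). The study deleted Myocd, which codes for myocardin, a coactivator of contractile genes, to ask what airway smooth muscle contributes to airway size, tracheal cartilage and branching. Mutants carried Tbx4rtTAi/+; tetOcrei/+; MyocdF/F, in which a reverse tetracycline transactivator named for Tbx4, active in lung mesenchyme, switches on a Cre recombinase that deletes the floxed Myocd alleles. Controls carried the same transactivator and Cre with 1 floxed allele (MyocdF/+), so the controls also held the Cre and 1 deletable copy of Myocd. The exception was E13.5 control replicate 1, labelled MyocdF/F without the transgenes. Because E13.5 libraries came from both sides and E18.5 lung libraries from the right lobes only, stage and lobe cannot be told apart. Drug dosing, strain and litter are not given in the sources used here.

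TGF-beta ligands are secreted in a latent form, held in the matrix by latent TGF-beta binding proteins until integrins or proteases release them. The free ligand binds the type II receptor TGFBR2, which recruits and activates the type I receptor TGFBR1, and SMAD2 and SMAD3 then carry the signal to the nucleus with SMAD4. Betaglycan, the product of Tgfbr3, presents ligand to TGFBR2 and matters most for TGF-beta2, while SMAD7 is induced by the pathway and shuts it off at the receptor. In the lung the pathway is known for restraining branching and for building mesenchyme, vessels and matrix, and in cartilage-bearing tissue for roles in the perichondrium.

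The ligand genes differed from one another in how their levels moved with stage and tissue, so the sequences just before the starts of Tgfb1 and Tgfb2 are shown as the pair that moved in opposite directions between stages. RefSeq windows of GRCm38.p6 were matched for 6 of the 9 genes, and no window was matched for Tgfb3, Tgfbr3 or Smad7. Each stretch below is the 250 bases before the annotated start, in the intergenic or upstream flank and outside the transcript, written 5′ to 3′ on the strand of the gene. Capitals mark exact matches, searched on both strands, to 3 motifs: TATAAA, the letters of the TATA box; GGGCGG, those of the GC box bound by SP factors; and CAGAC, those of a SMAD-binding element. No printed match overlapped another.
Tgfb1, chr7:25686752-25687001, plus strand: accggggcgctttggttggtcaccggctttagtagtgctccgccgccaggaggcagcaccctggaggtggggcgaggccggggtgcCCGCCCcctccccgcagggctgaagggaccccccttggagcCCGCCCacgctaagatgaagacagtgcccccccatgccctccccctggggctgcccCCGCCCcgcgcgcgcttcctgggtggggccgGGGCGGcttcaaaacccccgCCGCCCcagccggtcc
Tgfb2, chr1:186705990-186706239, minus strand: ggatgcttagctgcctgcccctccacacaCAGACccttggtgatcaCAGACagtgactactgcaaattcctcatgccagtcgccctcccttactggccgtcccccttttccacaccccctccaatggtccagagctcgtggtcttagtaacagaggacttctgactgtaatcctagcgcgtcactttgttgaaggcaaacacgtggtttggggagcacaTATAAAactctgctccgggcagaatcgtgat
The Tgfb1 window was 75.2% G and C and held 5 GC box matches on the 2 strands together, with none to the other motifs. The Tgfb2 window was 53.6% G and C and held 1 TATA box, starting 31 bases before the gene start, and 2 SMAD-element matches, with no GC box. Among 32851 windows of the same length in RefSeq, 12.4% held TATAAA, 32.7% held GGGCGG and 42.2% held CAGAC. The CArG box, the motif bound by SRF, which myocardin coactivates, was found in 1.47% of all windows and in 0 of the 8 windows of the 6 matched genes. These matches are letters in a window and were not tested for binding.

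Each E13.5 lung library held 17.4 to 28.5 M counted reads, each E18.5 lung library 19.9 to 32.8 M and each trachea library 11.7 to 30.5 M. Levels are counts per M reads (CPM), scaled for composition, and ± marks the standard deviation (SD) between libraries. The tracheas varied most, with a biological coefficient of variation of 0.370 against 0.140 in E13.5 lung and 0.184 in E18.5 lung. Trachea control replicate 2 and mutant replicate 4 were the shallowest libraries, and mutant replicate 4 was the lowest of its group for several of the 9 genes. Marker levels matched the tissue labels: the summed level of 8 lung epithelial genes was 15047 to 17536 CPM in E18.5 control lungs and 817 to 915 CPM in control tracheas, and that of 10 cartilage genes 57.1 to 72.2 and 10964 to 16914 CPM. Myocd itself kept reads in all groups, at 10.1 to 18.8 CPM in E13.5 control lungs and 6.74 to 13 CPM in the mutants, 6.03 to 11.8 and 5.59 to 10.1 CPM in E18.5 lungs, and 0.889 to 8.06 and 2.69 to 8.80 CPM in tracheas. By edgeR its adjusted p was 0.998, 0.651 and 0.911, and since reads were counted over the whole gene these levels do not check the deletion. The 10 smooth muscle genes, part of the contractile programme that myocardin is known to switch on, summed to 1010.1 to 1292 CPM in E13.5 controls and 543 to 865 CPM in mutants, and to 1024 to 1479 and 354 to 587 CPM in tracheas. In E18.5 lungs these sums were 1168 to 1264 and 1083 to 1151 CPM. The most abundant genes weigh most in a sum. By edgeR, 5, 2 and 3 of the 10 were lower in mutants (adjusted p under 0.05) in E13.5 lung, E18.5 lung and trachea. Their median log2 fold changes were -1.33, -0.41 and -1.65, and 0.206%, 0.584% and 0.0710% of all genes were called in either direction.

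In control lungs, 7 of the 9 passed the edgeR test (adjusted p under 0.05) between E13.5 and E18.5, with 3 higher and 4 lower at E18.5. Of all 18639 genes tested 74.7% passed, 37.4% higher and 37.3% lower, so the count is near the background. Between trachea and lung of E18.5 controls, 8 of 9 passed, with 2 higher and 6 lower in trachea, beside 49.1% of 19859 genes, 24.5% higher and 24.6% lower. Between mutants and controls, 0 of 9 passed by edgeR or by DESeq2 in E13.5 lung, E18.5 lung or trachea, beside edgeR calls for 0.206%, 0.584% and 0.0710% of all genes. The stage and tissue comparisons share the E18.5 control lungs. In these whole-organ samples, fewer cells of a type and less RNA per cell cannot be told apart.

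Tgfb1 (ENSMUSG00000002603.15, chromosome 7, 25687002 to 25705077, GRCm38) codes for the ligand made by many cell types, endothelium and leukocytes among them. In control lungs its level was 24.6, 31.4, 24.6, 31.1 and 30.4 CPM at E13.5 and 50.8, 57.9, 50.7 and 60.2 CPM at E18.5. In control tracheas it was 21.7, 17.9, 17.6 and 22.6 CPM. All E18.5 lungs lay above all E13.5 lungs, and all tracheas below all E18.5 lungs. The level was 1.95-fold higher at E18.5 than at E13.5 (log2 fold change 0.96, SE 0.103, edgeR adjusted p 8.10e-09) and 2.73-fold lower in trachea than in lung (log2 -1.45, SE 0.116, adjusted p 1.05e-10). Summed levels of 7 endothelial genes moved in the same order, at 748 to 960.5 CPM in E13.5 control lungs, 3118 to 3371 CPM in E18.5 control lungs and 431 to 486 CPM in control tracheas. Those of 7 leukocyte genes were 106 to 117, 767 to 1027 and 312 to 363 CPM, and no gene of either list was at 0 in a whole group. Their part in the Tgfb1 differences was not tested.

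Tgfb2 (ENSMUSG00000039239.14, chromosome 1, 186622792 to 186705989) codes for a ligand with strong ties to epithelial and mesenchymal development. For 2.14% of its exon bases another gene overlaps. With stage it moved opposite to Tgfb1, at 190.2, 183, 174, 178 and 179 CPM in E13.5 control lungs and 73.5, 80.3, 87.0 and 84.0 CPM in E18.5 control lungs. Every E18.5 control lung was below every E13.5 control lung, a 2.20-fold fall (log2 -1.14, SE 0.0862, edgeR adjusted p 1.47e-11). Control tracheas were lower still, at 47.8, 35.1, 47.4 and 51.5 CPM, with no overlap with lung. The tissue difference was 1.77-fold (log2 -0.82, SE 0.179, adjusted p 0.000436). Tgfb1 and Tgfb2, whose upstream windows are printed above, thus differed in direction between the stages.

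Tgfb3 (ENSMUSG00000021253.7, chromosome 12, 86056745 to 86079041) codes for the ligand best known for its role in palate fusion. In control lungs it fell from 83.4, 80.5, 78.3, 92.3 and 89.9 CPM at E13.5 to 40.1, 37.8, 36.7 and 40.4 CPM at E18.5 (2.17-fold, log2 -1.12, SE 0.0866, edgeR adjusted p 2.42e-11). Tracheas stood far above both, at 235, 226, 252 and 265 CPM. Trachea exceeded E18.5 lung 6.36-fold (log2 2.67, SE 0.112, adjusted p 6.90e-16), the largest tissue difference among the 9 genes. Of the exon bases of Tgfb3, 12.4% overlap predicted genes on the opposite strand, and the kit does not mark strand, so reads there could not be assigned. Cartilage genes were high in the same tracheas (sums above), and so, unevenly, were genes of neighbouring tissue: 7 skeletal muscle genes summed to 38.2 to 2423 CPM and 5 thyroid genes to 5.64 to 629.7 CPM in control tracheas. The part of cartilage or of these neighbouring tissues in the Tgfb3 level was not tested.

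**Figure D1:**
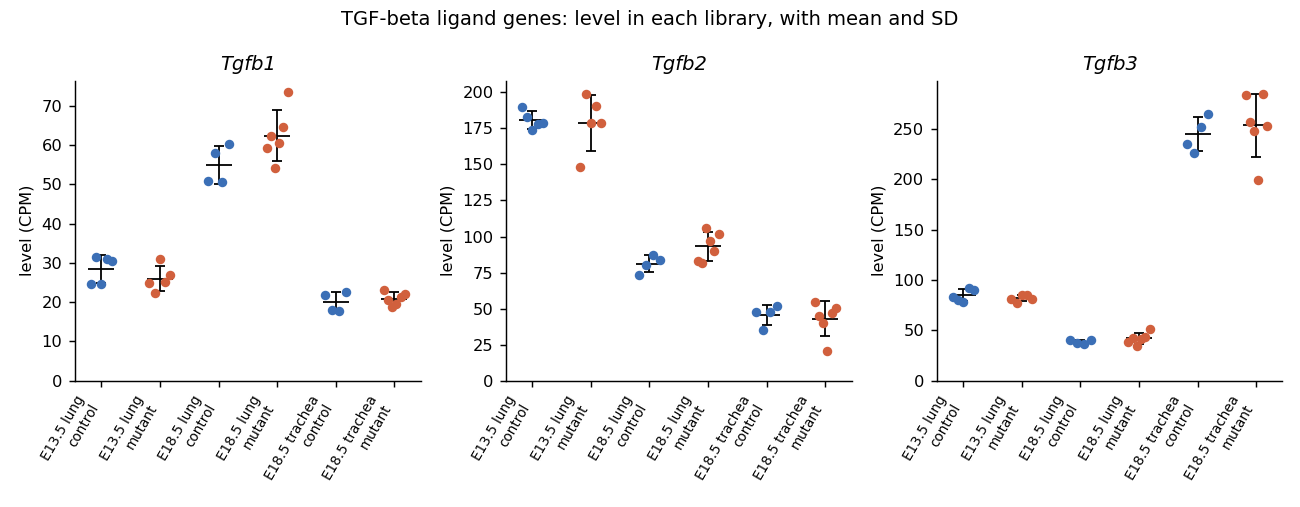
Level of Tgfb1, Tgfb2 and Tgfb3 (CPM, linear axes from 0, 1 panel per gene) in each of the 30 libraries, by tissue, stage and genotype, blue for controls and orange for mutants. Points are libraries, the long bar is the group mean and the error bars are SD. Tgfb1 was highest in E18.5 lung, Tgfb2 in E13.5 lung and Tgfb3 in trachea, and in each panel control and mutant points of one tissue and stage overlap.

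Within each library, the share of each ligand in the sum of the 3, taken per kb of exon so that genes can be compared, does not depend on library size. In E13.5 control lungs Tgfb2 made up 50.5% ± 2.06 (SD, n = 5), Tgfb3 40.5% ± 1.64 and Tgfb1 9.09% ± 0.939 of the ligand signal. At E18.5 the 3 were nearly even, with Tgfb2 at 38.6% ± 2.25 (SD, n = 4), Tgfb3 at 31.5% ± 1.83 and Tgfb1 at 29.9% ± 1.66. In control tracheas Tgfb3 made up 86.0% ± 1.20 (SD, n = 4), with Tgfb2 at 9.30% ± 0.941 and Tgfb1 at 4.70% ± 0.501. The Tgfb1 share rose by 20.8 points with stage in lung (exact two-sided permutation test, p = 0.0159), and the Tgfb3 share was 54.5 points higher in trachea than in lung (exact permutation p = 0.0286). Each is the smallest p the group sizes allow for unpaired libraries, and adjusted over the 15 share tests both gave 0.0714. The tissue test ignored the replicate numbers. If lung and trachea of 1 number came from 1 embryo, the libraries were not independent and its p would not hold. In mutants the shares lay near these values: Tgfb3 was 86.8% ± 1.30 (SD, n = 6) in mutant tracheas, Tgfb2 51.2% ± 3.22 (SD, n = 5) in E13.5 mutant lungs and Tgfb1 30.3% ± 1.63 (SD, n = 6) in E18.5 mutant lungs. The 9 share differences between genotypes lay between -1.23 and 0.870 points, with exact permutation p from 0.352 to 0.865.

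**Figure D2:**
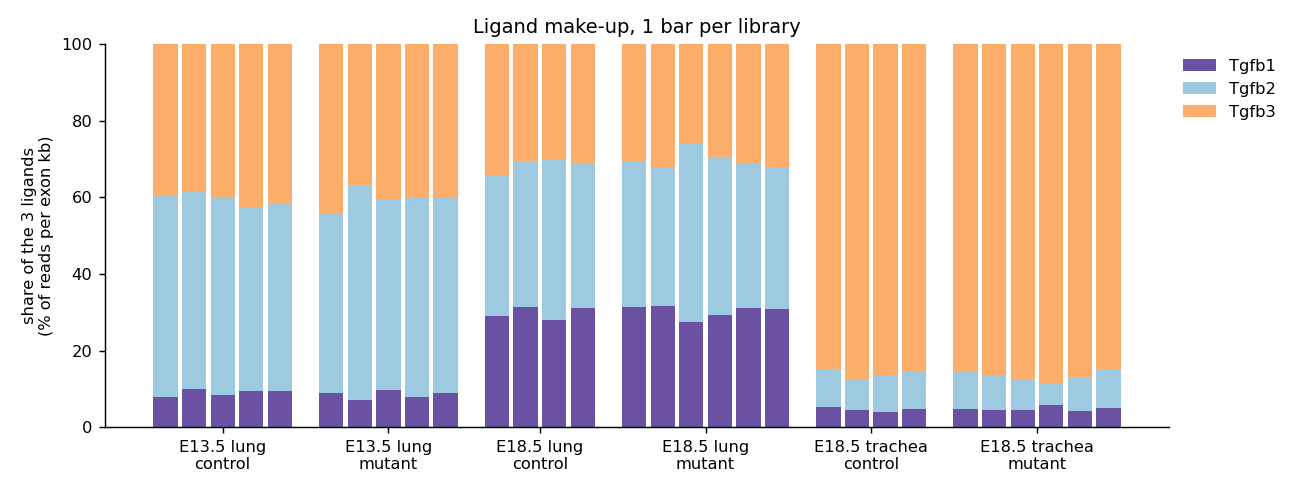
Share of Tgfb1, Tgfb2 and Tgfb3 in the sum of the ligand reads per exon kb (percent, 0 to 100), 1 stacked bar per library, grouped by tissue, stage and genotype. The Tgfb3 part fills 84.7% or more of each control trachea bar, while in E18.5 lung controls the Tgfb1 part is 28.0% to 31.5%, against 7.82% to 10.1% at E13.5.

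Among the receptors, Tgfbr2 and Tgfbr3 rose with stage while Tgfbr1 fell. Tgfbr2 (ENSMUSG00000032440.13, chromosome 9, 116084293 to 116175360), the type II receptor that binds ligand first, was at 114, 92.8, 109, 111 and 107 CPM in E13.5 control lungs and at 379, 390.4, 352 and 380.4 CPM at E18.5. That was a 3.55-fold rise (log2 1.83, SE 0.0756, edgeR adjusted p 1.57e-16), the largest stage difference among the 9 genes, with no overlap. Control tracheas lay between, at 259, 232, 266 and 275 CPM, 1.45-fold below E18.5 lung (log2 -0.53, SE 0.110, adjusted p 0.000259).

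Tgfbr3 (ENSMUSG00000029287.14, chromosome 5, 107106570 to 107289629), the coreceptor betaglycan, followed the same order. It was at 38.8, 47.5, 44.6, 41.5 and 39.8 CPM in E13.5 control lungs, 151, 135, 133 and 126 CPM in E18.5 control lungs and 105, 105, 99.6 and 101 CPM in control tracheas. The 3 groups did not overlap. It rose 3.24-fold with stage (log2 1.70, SE 0.0809, edgeR adjusted p 2.38e-15) and was 1.31-fold lower in trachea (log2 -0.39, SE 0.0789, adjusted p 0.000191). For Tgfbr3, 4.54% of exon bases overlap another gene.

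Tgfbr1 (ENSMUSG00000007613.15, chromosome 4, 47353222 to 47414931), the kinase that passes the signal to SMADs, ran from 110.1 to 122 CPM in E13.5 control lungs, 60.8 to 80.0 CPM in E18.5 control lungs and 27.0 to 52.6 CPM in control tracheas. It fell 1.61-fold with stage (log2 -0.68, SE 0.0833, edgeR adjusted p 7.60e-08) and was 1.65-fold lower in trachea than in lung (log2 -0.72, SE 0.142, adjusted p 0.000151). The ranges did not overlap, though the lowest trachea value came from the shallow control replicate 2. The genes of the signalling pair thus moved apart: per kb of exon, Tgfbr1 averaged 17.6 ± 0.835 and Tgfbr2 13 ± 1.0 CPM per kb in E13.5 control lungs (SD, n = 5), and 10.9 ± 1.24 and 45.9 ± 1.98 CPM per kb at E18.5 (SD, n = 4). All 3 receptor genes were lower in trachea than in E18.5 lung.

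Ltbp1 (ENSMUSG00000001870.15, chromosome 17, 75005568 to 75392512), whose product ties latent TGF-beta to matrix fibres, changed with tissue and little with stage. Its level was 114, 108, 114, 109 and 109 CPM in E13.5 control lungs and 112, 101, 95.2 and 94.5 CPM at E18.5, with overlapping ranges and a log2 difference of -0.12 (SE 0.0871, edgeR adjusted p 0.212). In mutant lungs the stage difference was -0.21 (SE 0.0786, adjusted p 0.0169), and that call was lost without E13.5 mutant replicate 2 (-0.18, adjusted p 0.0543) or 4 (-0.18, 0.0598), or E18.5 mutant replicate 6 (-0.17, 0.0503). Control tracheas, at 246, 196, 255 and 241 CPM, were all above the lungs, 2.35-fold (log2 1.23, SE 0.143, adjusted p 7.86e-08). Tgfb3 and Ltbp1, a ligand and a storage protein, were the only members higher in trachea than in lung.

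Smad7 (ENSMUSG00000025880.11), the feedback inhibitor, ranged from 39.7 to 46.8 CPM in E13.5 control lungs, from 40.7 to 57.6 CPM at E18.5 and from 20 to 30.8 CPM in control tracheas. The lung stages overlapped (log2 0.19, SE 0.0902, edgeR adjusted p 0.0638), and this value passed without E13.5 control replicate 2 (0.22, adjusted p 0.0460), without E18.5 control replicate 1 (0.29, 0.00632) or 3 (0.23, 0.0470), or without E18.5 mutant replicate 3, which shares the fit (0.22, 0.0331). With DESeq2 it was 0.22 (adjusted p 0.0359). Tracheas were 1.88-fold lower with no overlap (log2 -0.91, SE 0.130, edgeR adjusted p 2.18e-06).

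Tgfbi (ENSMUSG00000035493.10, chromosome 13, 56609523 to 56639562) codes for a secreted matrix protein that binds collagens and integrins and is named for its induction by TGF-beta. In control lungs it was at 405, 426, 393, 407 and 402 CPM at E13.5 and at 192, 263, 185 and 187 CPM at E18.5. All E18.5 lungs were below all E13.5 lungs (1.94-fold, log2 -0.96, SE 0.121, edgeR adjusted p 1.43e-07). Control tracheas, at 227, 199.9, 161 and 224 CPM, overlapped E18.5 lungs (log2 -0.02, SE 0.201, 95% interval -0.43 to 0.40, adjusted p 0.957). It was the only gene of the 9 that did not pass between tissues.

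**Figure D3:**
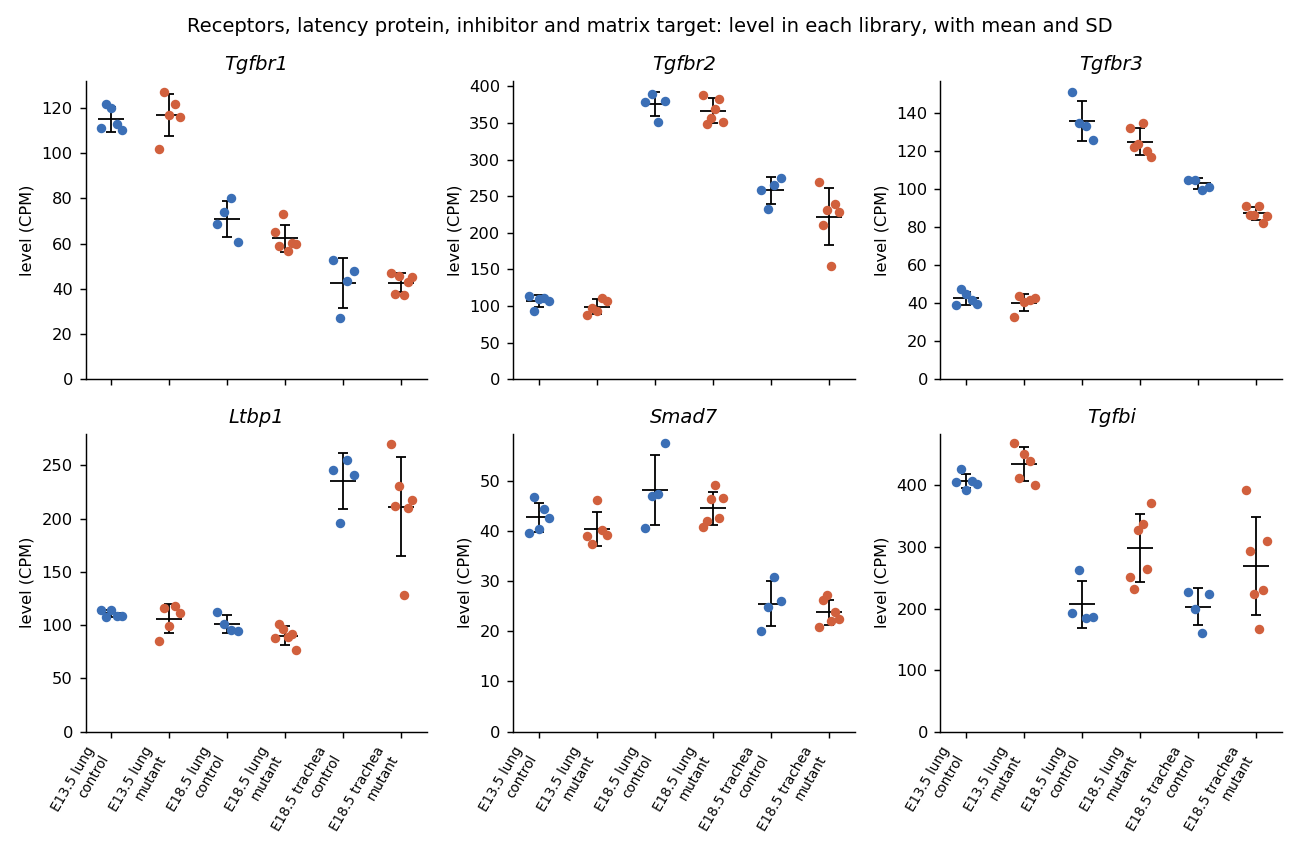
Level of the 3 receptor genes, Ltbp1, Smad7 and Tgfbi (CPM, linear axes from 0, 1 panel per gene) in each library, by tissue, stage and genotype, blue for controls and orange for mutants. Points are libraries, the long bar is the mean and the error bars are SD. Tgfbr2 and Tgfbr3 step up from E13.5 to E18.5 lung, Ltbp1 is highest in trachea, and the Tgfbi points of E18.5 mutant lungs (231 to 372 CPM) reach above those of controls (185 to 263 CPM).

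Per kb of exon, the order of the 9 genes changed between groups. In E13.5 control lungs Tgfbi led at 108 ± 3.13 CPM per kb (SD, n = 5), followed by Tgfb2 at 31.2 ± 1.06, Tgfb3 at 25.1 ± 1.78, Tgfbr1, Tgfbr2, Ltbp1 at 10.6 ± 0.300, Smad7 at 9.46 ± 0.643, Tgfbr3 at 6.49 ± 0.546 and Tgfb1 at 5.64 ± 0.697. The mean ± SD of Tgfbr3 overlapped that of Tgfb1, and no other pair of neighbours in this order overlapped. In E18.5 control lungs the mean ± SD of Tgfbi, 54.8 ± 10, overlapped that of Tgfbr2 (n = 4), Tgfbr3 at 20.8 ± 1.61 and Tgfb2 at 14 ± 1.0 came next, and Tgfb3, Tgfbr1, Tgfb1, Smad7 and Ltbp1 lay together between 9.61 and 11.5 CPM per kb with overlapping mean ± SD from each to the next. In control tracheas Tgfb3 led at 72.3 ± 5.09 CPM per kb (SD, n = 4), above Tgfbi at 53.8 ± 8.09, Tgfbr2 at 31.5 ± 2.25, Ltbp1 at 22.4 ± 2.50 and Tgfbr3 at 15.7 ± 0.440. Tgfb2 at 7.85 ± 1.23, Tgfbr1 at 6.53 ± 1.70 and Smad7 at 5.63 ± 0.989 followed, with neighbours overlapping, and Tgfb1 was lowest at 3.95 ± 0.512.

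The stage and tissue comparisons were repeated in mutant organs. Between E13.5 and E18.5, 8 of 9 genes passed in mutant lungs, 3 higher and 5 lower, beside 75.7% of all genes, 37.2% higher and 38.4% lower. Between trachea and lung 8 of 9 passed in mutants, 2 higher and 6 lower, beside 58.2% of all genes, 31.7% higher and 26.5% lower. Tgfb1 rose by 1.28 on the log2 scale (SE 0.0962) in mutant lungs and Tgfbr2 by 1.90 (SE 0.0712), while Tgfb2 was -0.93 (SE 0.0758) and Tgfb3 -0.95 (SE 0.0764), each with an edgeR adjusted p of 5.40e-11 or lower. In trachea against lung, mutants had a Tgfb3 difference of 2.67 (SE 0.0916) and an Ltbp1 difference of 1.30 (SE 0.117). The median over the 9 genes was -0.12 for stage and -0.53 for tissue in controls, and -0.21 and -0.48 in mutants, beside medians over all genes of -0.01, 0.01, -0.02 and 0.10.

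None of the 9 genes passed the test between mutants and controls. In E13.5 lung no member reached an unadjusted p under 0.05 by edgeR, beside 3.57% of 16486 genes that did, and the log2 fold changes lay between -0.12 (Tgfb1) and 0.10 (Tgfbi). In E18.5 lung 4 members did (Tgfb1, Tgfb2, Tgfbr1 and Tgfbi, beside 9.41% of 17467 genes), and in trachea 2 did (Tgfbr3 and Tgfbi, beside 6.75% of 18315). The medians over the 9 genes were -0.06, -0.03 and -0.06, beside 0.01, 0.00 and 0.02 over all genes. The 95% intervals show what size was compatible with each comparison: for Tgfb3 they ran from -0.17 to 0.08 in E13.5 lung, -0.08 to 0.32 in E18.5 lung and -0.15 to 0.30 in trachea.

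Tgfbi had the largest mutant difference, in E18.5 lung. Controls were at 192, 263, 185 and 187 CPM, and the 6 mutants ran from 231 CPM through a median of 296 to 372 CPM. Of the 6 mutants, 4 lay above every control, while those at 231 and 252 CPM lay below control replicate 2. The log2 fold change was 0.53 (SE 0.148, 95% interval 0.21 to 0.86), with an edgeR p of 0.00386 and an adjusted p of 0.212. Without control replicate 2, it was 0.67 with an adjusted p of 0.0304. In trachea the mutants ran from 166 CPM through 261 to 393 CPM, around controls at 161 to 227 CPM (log2 0.43, SE 0.194, adjusted p 0.733). E13.5 mutant lungs, at 469, 412, 451, 440.4 and 401 CPM, overlapped controls at 393 to 426 CPM (log2 0.10, SE 0.0607, adjusted p 0.998).

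Some cell type marker genes differed by genotype in E18.5 lung. The sums of 6 ciliated cell genes were 133 to 152 CPM in controls and 79.7 to 100 CPM in mutants. Those of 4 secretory cell genes were 1301 to 1539 and 741 to 1052 CPM. By edgeR, 4 of the ciliated and 2 of the secretory genes passed as lower, beside calls for 0.584% of all genes. The sums of 7 leukocyte genes overlapped, at 767 to 1027 and 544 to 816 CPM, and 0 of the 7 passed. In trachea, 10 cartilage genes summed to 10964 to 16914 CPM in controls and 3749 to 13312 CPM in mutants. The leukocyte sum there was 312 to 363 CPM in controls and 341 to 669.7 CPM in mutants, and the sum of 5 red cell genes 374 to 749 and 534 to 3655 CPM. No gene of these trachea lists passed the edgeR test. The part of these cell types in the Tgfbi values was not tested.

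The remaining members differed less. In E18.5 lung Tgfb1 was 54.2 to 73.5 CPM in mutants against 50.7 to 60.2 CPM in controls (log2 0.19, SE 0.0856, edgeR adjusted p 0.501), Tgfb2 81.5 to 106 against 73.5 to 87.0 CPM (0.20, SE 0.0808, 0.425) and Tgfbr1 56.7 to 73.0 against 60.8 to 80.0 CPM (-0.18, SE 0.0852). All 3 pairs of ranges overlapped. The ligand Tgfb3 was at 34.8 to 51.3 CPM in mutant lungs against 36.7 to 40.4 CPM in control lungs at E18.5, and at 199 to 285 against 226 to 265 CPM in trachea. The receptor gene Tgfbr2 was at 349 to 389 against 352 to 390.4 CPM in E18.5 lung and at 154 to 270.1 against 232 to 275 CPM in trachea. Both genes overlapped between genotypes in both tissues. Ltbp1 was at 76.2 to 101 against 94.5 to 112 CPM in E18.5 lung (log2 -0.15, SE 0.0763, adjusted p 0.558), and Smad7 at 40.8 to 49.2 against 40.7 to 57.6 CPM (-0.10, SE 0.0926, 0.784). In trachea Tgfbr3 was at 82.3 to 91.3 CPM in the 6 mutants and 99.6 to 105 CPM in the 4 controls, without overlap (-0.22, SE 0.0852, adjusted p 0.695). Mutant trachea replicate 4, a shallow library, gave the lowest Tgfb2 (20.6 CPM), Tgfb3 (199 CPM), Tgfbr2 (154 CPM), Ltbp1 (128 CPM) and Tgfbi (166 CPM) of its group. Without it and control replicate 2, still 0 of 9 members passed. Leaving out E13.5 control replicate 1, the library without transgenes, also left 0 of 9.

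**Figure D4:**
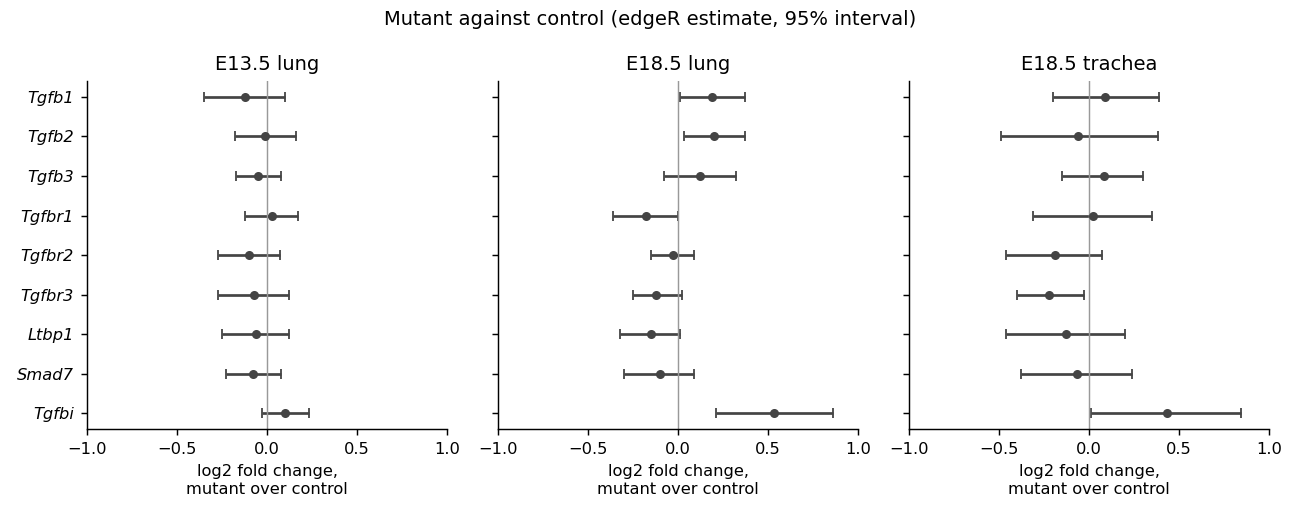
Log2 fold change of mutant over control for the 9 genes (edgeR estimate, points) with 95% intervals (bars), 1 panel each for E13.5 lung, E18.5 lung and E18.5 trachea. The Tgfbi estimates in E18.5 lung (0.53) and trachea (0.43) lie farthest from 0.

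Whether the deletion acted differently by stage or tissue was tested directly as a difference of mutant effects. For E18.5 against E13.5 lung 0 of 9 members passed (0.0268% of all genes did), with 2 at an unadjusted p under 0.05 by edgeR, beside 5.85% of 18639 genes. These were Tgfbi (difference 0.43, SE 0.161, adjusted p 0.690) and Tgfb1 (0.31, SE 0.140, adjusted p 0.818). For trachea against lung at E18.5 0 of 9 passed (0.0252% of all genes), with 0 at an unadjusted p under 0.05 by edgeR beside 6.92% of 19859, and differences from -0.22 (Tgfb2) to 0.24 (Tgfbr1). DESeq2 called 0 of 9 in either. The medians over the 9 genes were 0.07 and -0.06, beside -0.01 and 0.07 over all genes.

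Another 63 genes of the pathway, in 6 lists by role, were read in the same fits. In control lungs, 50 of the 62 tested passed with stage (33 higher and 17 lower at E18.5, median log2 0.41), and between trachea and lung 49 of 62 (28 higher and 21 lower in trachea, median 0.15). Over all genes 74.7% passed with stage (37.4% higher and 37.3% lower), with a median of -0.01. Between tissues 49.1% of all genes passed (24.5% higher and 24.6% lower), with a median of 0.01. The counts of each list below stand beside these same shares. Of 15 genes that hold or release latent TGF-beta, 9 rose and 4 fell with stage (median 0.75). Itgb6, a subunit of an epithelial integrin that releases latent TGF-beta, was at 4.30 ± 0.940 CPM at E13.5 (SD, n = 5) and at 73.8 ± 5.18 CPM at E18.5 (SD, n = 4), a rise of 4.11 on the log2 scale (SE 0.155, edgeR adjusted p 2.92e-17). Ltbp2, a relative of Ltbp1, rose from 11.8 ± 3.81 to 199 ± 31.3 CPM, and Itgb8, a subunit of another releasing integrin, fell from 12.4 ± 1.12 to 1.02 ± 0.201 CPM. In trachea Itgb6 was at 4.48 ± 1.01 CPM (log2 -4.03 against lung), Nrros, which holds latent ligand on macrophages, at 16.9 ± 2.03 against 126 ± 2.0 CPM in lung, and Fbn2, a microfibril gene, at 888 ± 119 against 169 ± 33.1 CPM. In that list 9 genes were higher and 4 lower in trachea (median 0.57).

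Of 8 other receptor genes of the pathway, 5 rose with stage and the other 3 did not pass (median log2 0.71 over the 8), led by Acvrl1, a type I receptor of endothelium, from 78.2 ± 3.35 to 498 ± 23.8 CPM (log2 2.69, SE 0.0763, edgeR adjusted p 1.52e-19). Eng, the endothelial coreceptor endoglin, rose from 109 ± 8.10 to 217 ± 20 CPM, and Acvr2a, an activin receptor, from 47.1 ± 2.59 to 76.4 ± 6.46 CPM. In trachea 2 of the 8 were higher and 4 lower (median -0.41), with Acvrl1 at 96.4 ± 9.85 CPM, Acvr2a at 30.5 ± 4.32 CPM and Acvr2b at 1.79 ± 1.20 CPM. The endothelial sums given with Tgfb1 moved in the same directions, and their part was not tested.

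Activin ligands and their inhibitors, of a sister branch that shares SMAD2 and SMAD3, made a list of 5 genes. In trachea 4 of the 5, ligand subunit and inhibitor genes both, passed as higher and the fifth did not pass (median 1.93), beside 24.5% of all genes higher. Fst, which codes for the activin trap follistatin, stood at 47.6 ± 3.32 CPM in control tracheas against 1.10 ± 0.630 CPM in lungs (log2 5.44, SE 0.409, edgeR adjusted p 1.84e-10). Inhba, an activin subunit gene, was at 24.3 ± 5.34 against 3.03 ± 0.623 CPM. Inha, which codes for the alpha subunit of inhibin, was at 68.7 ± 4.24 against 18.2 ± 0.837 CPM. With stage in lung 3 rose and 2 fell, and Inhbb rose from 0.587 ± 0.196 to 6.02 ± 1.73 CPM, Fstl3 from 2.19 ± 0.375 to 5.11 ± 0.805 CPM and Inha from 11.3 ± 0.734 CPM.

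Among SMADs and their partners, of 7 tested, 1 rose and 4 fell with stage (median -0.22), among them Smad2, a SMAD that receptors activate, from 68.2 ± 2.55 to 45.0 ± 2.59 CPM, and the corepressor genes Tgif1, from 67.0 ± 2.11 to 48.5 ± 4.77 CPM, and Tgif2, from 6.82 ± 0.448 to 2.45 ± 0.810 CPM. In trachea 3 of 7 were lower and the other 4 did not pass (median -0.16): Smad3 at 71.7 ± 9.09 against 117 ± 9.05 CPM in lung, Zfyve9, an anchor for SMAD2 and SMAD3, at 34.1 ± 3.32 against 50.2 ± 3.56 CPM, and Smad4 at 79.5 ± 4.35 against 97.3 ± 6.96 CPM. Smad4 lost its call without lung control replicate 1 (edgeR adjusted p 0.0751), without trachea control replicate 4 (0.0599) or with no low-count filter (0.146). Foxh1 was too low to test.

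Of 10 genes that inhibit or trap the pathway, 5 rose and 3 fell with stage (median 0.22), and in trachea 4 were higher and 4 lower (median -0.21). The higher genes in trachea included small proteoglycans that bind TGF-beta in matrix: Dcn at 479 ± 34.0 CPM against 28.5 ± 3.31 CPM in lung (log2 4.08, SE 0.228, edgeR adjusted p 7.01e-13), Bgn at 2843 ± 311 against 1012 ± 105 CPM and Fmod at 356 ± 84.0 against 75.4 ± 28.4 CPM. With stage in lung Bgn rose from 353 ± 30.7 CPM, Ldlrad4, which keeps SMADs from the receptor, rose from 4.58 ± 0.816 to 15 ± 3.61 CPM, and Fmod fell from 275 ± 65.0 CPM.

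Among 17 textbook target genes, 10 rose and 4 fell with stage in lung (median 1.42), and 9 were higher and 6 lower in trachea (median 0.69). Over all genes 74.7% passed with stage and 49.1% between tissues. Cdkn2b, a cell-cycle inhibitor, rose from 0.296 ± 0.198 to 35.2 ± 3.95 CPM with stage (log2 6.86, SE 0.244, edgeR adjusted p 9.42e-18), Postn, the matrix protein periostin, from 52.5 ± 13.6 to 535 ± 38.6 CPM, and Fn1, fibronectin, from 628 ± 128 to 5059 ± 395 CPM. Tracheas had less Cdkn2b (1.05 ± 0.962 CPM) and Nox4 (4.15 ± 2.45 against 42.6 ± 1.99 CPM), an oxidase gene, and more Thbs2 (324 ± 39.0 against 30.1 ± 2.80 CPM), a matrix thrombospondin. Tgfbi, a TGF-beta target that belongs to the 9 genes and not to these 17, also fell with stage.

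**Figure D5:**
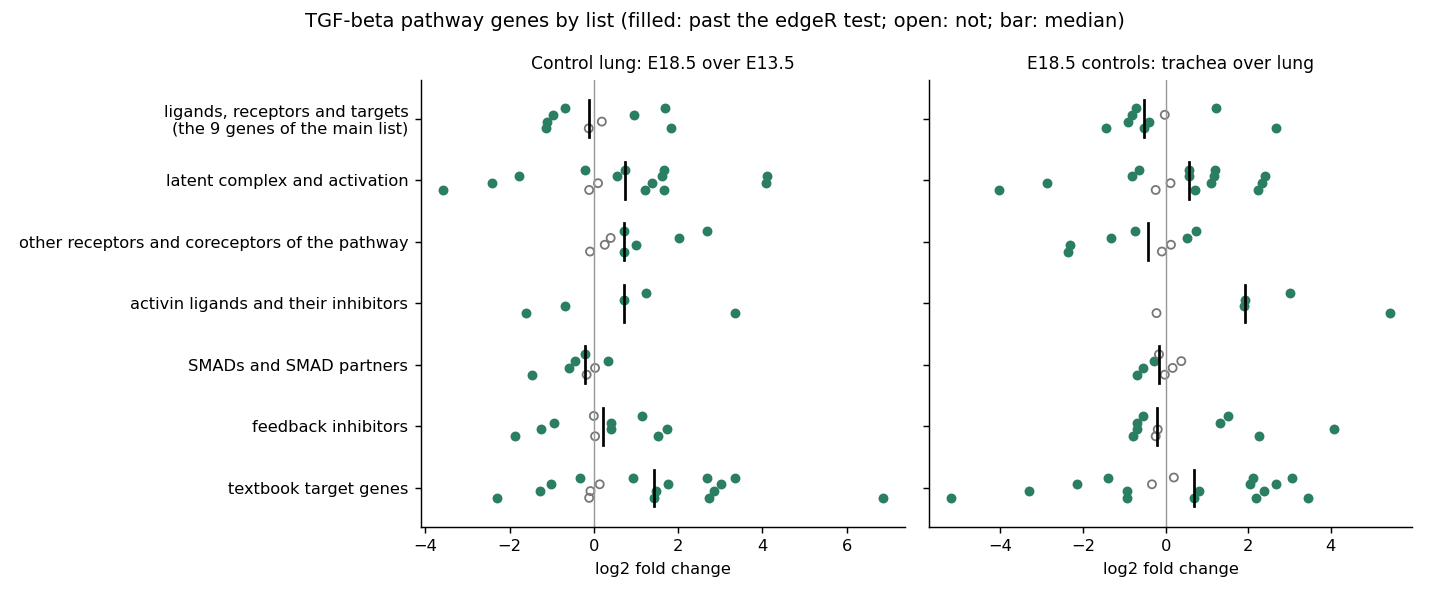
Log2 fold change of each pathway gene by list (rows), for E18.5 over E13.5 in control lungs (left) and trachea over lung in E18.5 controls (right). Filled points passed the edgeR test, open points did not, and the black bar is the list median, which for the 9 genes was -0.12 and -0.53.

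Between mutants and controls, 1 of 61 pathway genes tested passed in E13.5 lung, 1 of 62 in E18.5 lung and 0 of 62 in trachea, with medians of -0.03, 0.04 and -0.13. Over all genes 0.206%, 0.584% and 0.0710% passed, with medians of 0.01, 0.00 and 0.02. In trachea 52 of 62 estimates were below 0, and the share of all genes below 0 was not counted. These estimates come from the same libraries and are not independent. At an unadjusted p under 0.05 by edgeR were 8 genes, all lower, beside 6.75% of all genes in either direction. DESeq2 called 2 there, Thbs1 and Tgfb1i1. Tgfb1i1, a focal adhesion adaptor gene that TGF-beta induces and that smooth muscle also expresses, was at 58.7 to 73.8 CPM in E13.5 mutant lungs and 84.3 to 100.4 CPM in controls (log2 -0.47, SE 0.0784, edgeR adjusted p 0.0298). Leaving out 1 library ended the call for 4 of the controls (replicates 1, 3, 4 and 5) and for 3 of the mutants (replicates 2, 3 and 4), with an adjusted p of 0.0510 to 0.133. Of 5 alternatives that kept all libraries, 4 kept the call, DESeq2 among them. The replicate block did not (edgeR adjusted p 0.0960). Smooth muscle sums fell with it (values above), and their part was not tested. Fn1 was at 3401 to 4476 CPM in E18.5 mutant lungs and 4626 to 5567 CPM in controls (log2 -0.34, SE 0.0714, adjusted p 0.0371). Leaving out control 1 or control 4, or any mutant but replicate 1, ended it (adjusted p 0.0564 to 0.198), as did a fit of all 30 libraries (0.608). The other 4 alternatives that kept all libraries left the Fn1 call in place, DESeq2 among them.

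Genes whose log2 CPM ran most like each ligand over the 30 libraries were sought among 12985 genes. Closest to Tgfb1 were Gimap4 (Pearson r 0.978), Zbtb8b (0.976) and Shank3 (0.974), with Gimap4 at 23.6, 133 and 13.7 CPM in E13.5 lung, E18.5 lung and trachea controls. Closest to Tgfb2 were Rad21 (0.988), Rtf1 (0.984) and Meis2 (0.982), and to Tgfb3 Rpn2 (0.988), Islr (0.986) and Ddost (0.986), with Islr at 113, 38.7 and 449 CPM in the same order. The 30 points come from 3 settings of tissue and stage and are not independent, and no p is given.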

How the data were processed

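The authors counted reads for each gene with featureCounts 1.6.2 on GENCODE vM17, per the file headers, and deposited these counts without normalization in 3 tables. Reads were single, 75 bases long and from a kit that does not mark strand, per the labels' protocols. STAR, GRCm38 and DESeq2 are named in the submitters' processing notes and design text. Reads that a gene shares with an overlapping or near-identical gene could not be assigned. GENCODE vM21 gave a symbol for 53620 of the 53715 genes. Each library was a separate lung or trachea, and no pair within a group was a copy (lowest chi-square per degree of freedom 4.11).

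From the counts, edgeR 4.0.16 (R 4.3.3, with limma 3.58.1) fitted each tissue and stage by itself for mutant against control. It fitted 20 libraries of joined tables, matched by gene ID, for stage and for tissue. Each fit used TMM scaling, filterByExpr and a robust, two-sided quasi-likelihood F test, whose p-values were adjusted by Benjamini-Hochberg over all genes tested and called under 0.05. SE is the size of the log2 fold change over the square root of F. CPM levels use TMM factors of all 30 libraries. Ligand shares were tested by exact permutation (scipy 1.17.1) with adjustment over 15 tests. The procedure was tested on simulated counts.

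Alternatives were RLE scaling, no low-count filter, a replicate block, DESeq2 1.42.0, 1 fit of all 30 libraries, shares of plain counts, and leaving out each library. Leaving out the 2 shallowest tracheas together was chosen after the data were seen. All 9 members are named, as is every other pathway gene past the threshold between genotypes. In the stage and tissue comparisons up to 3 genes a list are named, those with the largest change and 5 CPM or more. Thbs1, called by DESeq2 in trachea, was named after its values were seen. One further pathway gene is not reported here. Like-pattern genes are the 3 with the highest r. The members and lists were chosen with earlier results of these data known.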

Additional observations from a re-analysis of the deposited data

Results flagged for a closer look

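Tgfbi in control replicate 2 of E18.5 lung stood apart from its group: it was at 263 CPM, with the other 3 controls between 185 and 192 CPM. Its gap to the nearest control was 0.906 of the whole range of the group, above Dixon's 95% critical value for 4 libraries. Levels of the 9 genes were checked this way in 54 groups, and chance alone marks about 1 group in 20. No difference of mutant effects between stages or tissues passed the edgeR test for any of the 9 genes.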

How the results depend on the processing

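Depth, the spread between tracheas and the group sizes limit these values: small mutant differences were not detectable, above all in trachea, where the spread was largest. Stage was compared between tables made from different lobes. The 2 shallowest tracheas were left out together as an alternative chosen after the data were seen.

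Under RLE scaling, no low-count filter, the replicate block, DESeq2 and 1 fit of all 30 libraries, 0 of the 9 genes were called between genotypes in any tissue or stage. Leaving out 1 library gave 0 to 1 in E18.5 lung, the 1 being Tgfbi without control replicate 2. Over the log2 fold changes of single genes under alternatives that kept all libraries or left out the 2 tracheas, 631 kept direction and call, 9 changed sign, 4 gained the call and 5 lost it. With 1 library left out these counts were 2034, 29, 8 and 19. The causes were not tested.

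Tgfbr1 in trachea mutants went to -0.11 without the 2 shallow tracheas and to -0.01 with 30 libraries in 1 fit. Tgfbi between trachea and lung of controls went to 0.02 with RLE, 0.05 with no filter and 0.02 with DESeq2, and in mutants to 0.02 without the shallow tracheas. The tissue difference of mutant effects went to 0.00 for Tgfb3 with the replicate block and 0.04 without the shallow tracheas, where Tgfbi went to 0.05. With 1 library left out, the mutant difference in E13.5 lung ran from -0.05 to 0.05 for Tgfb2, from -0.01 to 0.07 for Tgfbr1 and from -0.11 to 0.01 for Ltbp1. In trachea it ran from -0.16 to 0.07 for Tgfb2, from -0.14 to 0.14 for Tgfbr1 and from -0.18 to 0.02 for Smad7. Tgfbi between trachea and lung ran from -0.08 to 0.12 in controls and from -0.22 to 0.02 in mutants. The stage difference of effects ran from -0.11 to 0.06 for Smad7. The tissue difference of effects ran from -0.11 to 0.01 for Tgfb1, -0.05 to 0.06 for Tgfb3, -0.01 to 0.17 for Ltbp1, -0.03 to 0.17 for Smad7 and -0.20 to 0.04 for Tgfbi. Share differences between genotypes ran from -0.387 to 1.79 points for Tgfb2 and -1.16 to 0.556 for Tgfb3 in E13.5 lung, from -0.283 to 0.943 for Tgfb1 and -0.537 to 1.96 for Tgfb2 in E18.5 lung, and from -0.0794 to 0.318 for Tgfb1 in trachea.

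Smad7 gained a call between stages with RLE, at 0.22 in controls and 0.19 in mutants (adjusted p 0.0360 and 0.0458), and with DESeq2 at the same sizes (0.0359 and 0.0459). Ltbp1 between stages in mutants lost its call in the fit of 30 libraries (-0.23, 0.0825).

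The correlations between deviations of same-numbered controls and mutants were -0.14 to -0.02 in E13.5 lung, 0.00 to 0.13 in E18.5 lung and -0.22 to 0.14 in trachea, so the numbers were not taken as pairs. Of the 4 numbers in E18.5 lung, 3 (replicates 2, 3 and 4) correlated best with their own number in both genotypes. Lung and trachea of 1 number correlated at 0.03 to 0.15, and every control, and every mutant but replicate 4, did so best with its own number. With the replicate block, Ltbp1 between stages in mutants was -0.17 (adjusted p 0.0769) and Tgfb1i1 in E13.5 lung -0.48 (0.0960).

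Counts over all genes moved with the method. In E13.5 lung, 34 calls became 0 with the replicate block and 79 with DESeq2, and in E18.5 lung 102 became 73 with the block, 192 with no filter and 262 with DESeq2. In trachea 13 became 28 with the block, 22 with no filter, 45 without the shallow tracheas, 99 with DESeq2 and 156 in the fit of 30. The 5 calls of the stage difference of effects became 1 with the block, 42 with DESeq2 and 0 in the fit of 30, and the 5 of the tissue difference 12 without the shallow tracheas, 67 with DESeq2 and 22 in the fit of 30. Leaving out 1 library gave 17 to 56, 26 to 205, 3 to 16, 3 to 19 and 2 to 9 calls in the 5 comparisons, and in E18.5 lung the ends were without control replicate 1 and without control replicate 2. DESeq2 moved the share of higher calls from 8.82% to 29.1%, from 5.88% to 17.6% and from 7.69% to 25.3% in E13.5 lung, E18.5 lung and trachea.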
